A study of Mus musculus with 24 samples.

Results

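Hypoxia-inducible factors are transcription factors that pair an oxygen-regulated alpha subunit (Hif1a, Epas1 or Hif3a) with a stable beta subunit (Arnt or Arnt2). In the presence of oxygen, the prolyl hydroxylases encoded by Egln1, Egln2 and Egln3 mark alpha subunits for degradation, so the system is known to be set largely at the protein level. Vegfa, a growth factor for blood vessels, is one of its classic target genes. Hif3a is the less studied alpha subunit, and in the mouse some of its splice forms are known to hold back the other two. The members described here are all 25 probes annotated to these 9 genes, of 45281 probes on the array. Of these, 20 passed the filter on dim probes and were tested, and all 9 genes had at least 1 tested probe, of 13748 genes tested. The genes were chosen by the rise of 1 Hif3a probe after a morphine injection, a measured difference of these arrays, so the Hif3a values in the injection comparisons are a description and carry no test.

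RNA of the striatum was measured on 24 Illumina bead arrays, with C57BL/6J mice aged 6 to 10 weeks in 4 groups of 6 arrays. A first pair of groups had drunk saccharin over a long period and the other pair morphine, an opioid agonist, by self-administration. In each pair, 1 group was injected with saline at 10 ml/kg and the other with morphine at 20 mg/kg intraperitoneally, and all mice were killed 4 h later. None of these groups went without an injection or drank plain water alone. The arrays lay on 6 chips, each with 1 array of every group, and the median raw intensity of an array ran from 164 to 543. Values are normalized log2 intensities, and a difference is morphine minus saline injection unless said otherwise, with its standard error (SE). Levels of different probes are not compared with each other. A call means an adjusted p under 0.05 in limma, over 22499 probes.

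The striatal identity of the tissue was checked on 13 genes of medium spiny neurons. Their mean log2 intensity was 11.97 to 12.96 on 22 arrays, but 9.78 on replicate 32 (morphine drinkers, saline) and 9.76 on replicate 31 (morphine drinkers, morphine), both on chip 2. On the same 2 arrays the mean of 8 genes of cortical projection neurons was 11.11 and 11.21, above the 9.12 to 11.01 of the others. For comparisons that use morphine drinkers, 2 kinds of results are therefore also given without these 2 arrays. They are the counts over the member probes outside Hif3a and the values of some member probes, not of all. In bulk tissue, fewer cells of a type and less RNA per cell cannot be told apart.

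The promoter windows of Hif3a and Hif1a are shown, Hif3a because its probe differed between injections and Hif1a as the best-known alpha subunit. Each runs from 250 bases before to 50 bases after a transcript start in RefSeq on GRCm38.p6, and capitals mark matches to the hypoxia response core, ACGTG or GCGTG, on either strand. The Hif3a window is chr7:17062378-17062677 on the minus strand, and the Hif1a window is chr12:73907617-73907916 on the plus strand.
Hif3a: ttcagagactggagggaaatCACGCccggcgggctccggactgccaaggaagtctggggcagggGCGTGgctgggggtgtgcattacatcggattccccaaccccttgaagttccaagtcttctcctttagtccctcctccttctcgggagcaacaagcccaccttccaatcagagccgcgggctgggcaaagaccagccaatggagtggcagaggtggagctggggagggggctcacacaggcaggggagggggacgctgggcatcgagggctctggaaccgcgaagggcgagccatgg
Hif1a: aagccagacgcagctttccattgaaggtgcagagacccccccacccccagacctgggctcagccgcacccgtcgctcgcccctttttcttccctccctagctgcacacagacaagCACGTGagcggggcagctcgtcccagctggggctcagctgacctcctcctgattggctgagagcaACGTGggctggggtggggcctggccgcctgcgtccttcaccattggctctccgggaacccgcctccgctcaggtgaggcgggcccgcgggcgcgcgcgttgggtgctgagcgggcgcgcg
The Hif3a window held 2 matches to GCGTG, at -230 and -186 from the start, and 0 to ACGTG. The Hif1a window held ACGTG at -70 and in a palindrome, CACGTG, that reads the same on both strands. At least 1 of these cores was present in 43.8% of 32851 windows of the same length, so a match is common. Neither window held the glucocorticoid half-site AGAACA (present in 19.0% of windows), searched on both strands. RefSeq windows were at hand for 8 of the 9 genes, 10 windows in all, with none for Epas1.

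Hif3a had 3 tested probes, and they did not behave alike. Probe ILMN_2649671, annotated to a GenBank record, was the one by which the gene was chosen. In saccharin drinkers its log2 intensity was 7.49 at the lowest, 8.34 at the median and 8.80 at the highest after saline, against 9.52, 9.67 and 9.93 after morphine. In morphine drinkers the same 3 values were 7.44, 8.13 and 8.82 after saline and 9.05, 9.45 and 9.67 after morphine. The saline and morphine groups did not overlap in either kind of drinker: all 12 saline arrays lay between 7.44 and 8.82 and all 12 morphine arrays between 9.05 and 9.93. No other member probe separated its groups in this way, and over all probes tested 0.449% did so in saccharin drinkers, 0.311% in morphine drinkers and 0.08% in both.

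The difference for ILMN_2649671 was 1.47 in saccharin drinkers (SE 0.204, 2.76-fold) and 1.23 in morphine drinkers (SE 0.204, 2.35-fold). It was 1.29 in morphine drinkers without the 2 chip 2 arrays. Spread was wider after saline, with an SD of 0.505 and 0.514 in saccharin and morphine drinkers (n = 6 each), than after morphine, with 0.157 and 0.242. It was called in all 3 injection comparisons, which is how the gene was chosen. Over all probes, 0.222% were called in saccharin drinkers, 0.0533% in morphine drinkers and 0.476% averaged over drinks.

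**Figure D1:**
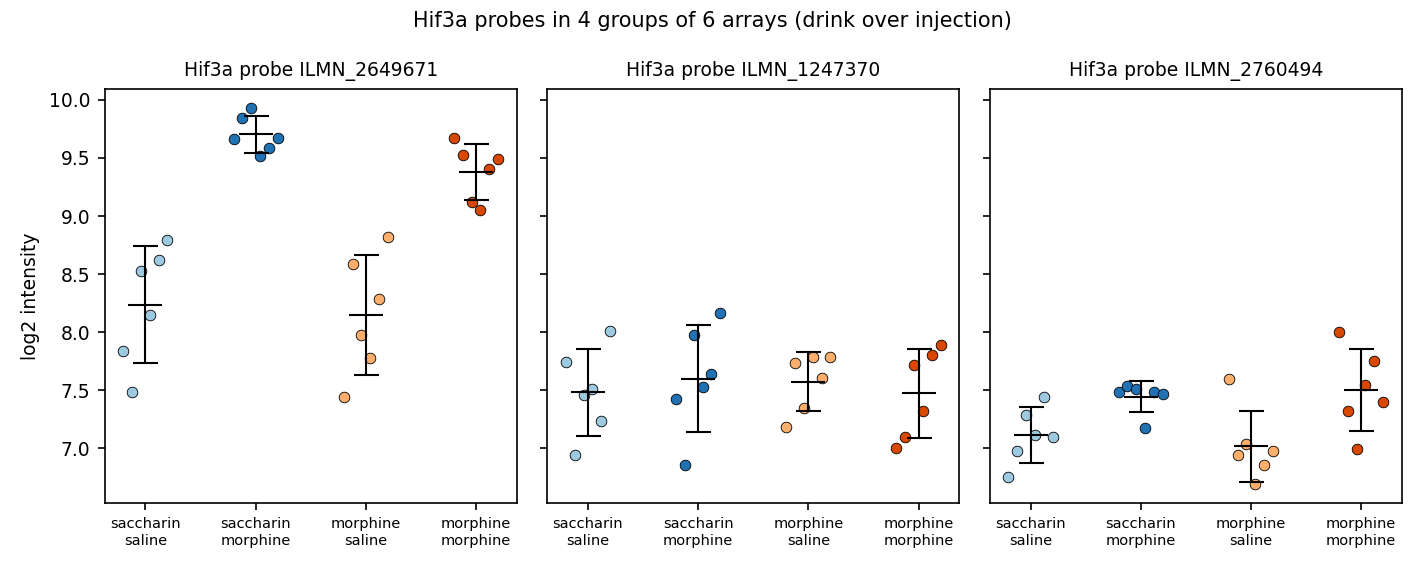
Log2 intensity of the 3 Hif3a probes on 24 arrays, in 4 groups of 6 named by drink over injection; points are arrays, the horizontal line is the mean and bars are 1 SD. For ILMN_2649671 all morphine-injected arrays sit at 9.05 or higher and all saline arrays at 8.82 or lower, while the groups of both other probes overlap.

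Within each chip, ILMN_2649671 was higher after morphine than after saline, on 6 of 6 chips in both kinds of drinkers. In saccharin drinkers the difference ran from 0.88 on chip 6 to 2.36 on chip 2, and in morphine drinkers from 0.68 on chip 6 to 2.23 on chip 1. The saline arrays varied most: on chip 1 they stood at 7.84 and 7.44, and on chip 6 at 8.80 and 8.82. Median raw intensity went the other way, from 307 to 543 on the arrays of chip 1 to 164 to 177 on those of chip 6. The pattern was not regular: on chip 2, at 326 to 430, the saline arrays stood at 7.49 and 8.59. The part of overall brightness in the size of the difference was not tested.

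Markers of other cells were set beside Hif3a, since the samples hold all cells of the tissue. The mean of 10 astrocyte genes ran from 12.17 to 12.51 after saline and from 12.31 to 12.51 after morphine in saccharin drinkers, and from 12.27 to 12.80 and from 12.32 to 12.72 in morphine drinkers. The astrocyte groups overlapped. Their highest values in morphine drinkers, 12.80 and 12.72, came from replicates 32 and 31, while the other 22 arrays ran from 12.17 to 12.57. The part of astrocyte content in the Hif3a difference was not tested. Over the 9 marker lists, limma called 4 genes averaged over drinks, named here after their values were seen. The connexin gene Gjb6 rose by 0.61, on 1 of 17 astrocyte probes tested. Among 22 oligodendrocyte probes, the myelin gene Mobp rose by 0.47 and Sox10 fell by 0.38, on 1 probe each. The microglial receptor gene Cx3cr1 fell by 0.49, on 1 of 10 microglial probes. Over all probes, 0.476% were called in that comparison. The part of these 4 genes in the Hif3a difference was not tested.

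**Figure D2:**
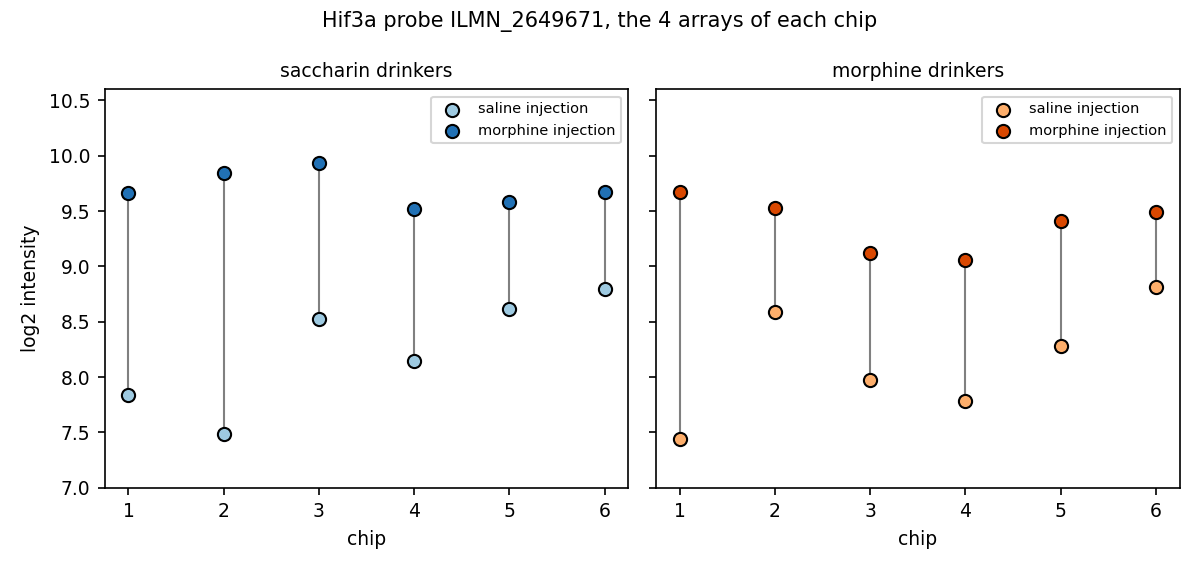
Log2 intensity of Hif3a probe ILMN_2649671 on the 4 arrays of each chip, with saccharin drinkers on the left and morphine drinkers on the right; a line joins the saline and morphine arrays of 1 chip. The morphine array lies above the saline array in every pair, by 0.68 to 2.36 log2 units.

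Probe ILMN_2760494, annotated to the RefSeq transcript of Hif3a, was higher after morphine by less. It ran from 6.75 to 7.45 (median 7.11) after saline and from 7.18 to 7.54 (median 7.49) after morphine in saccharin drinkers. In morphine drinkers it ran from 6.69 to 7.59 (median 6.96) after saline and from 6.99 to 8.0 (median 7.48) after morphine. The groups overlapped in both kinds of drinkers. The difference was 0.33 (SE 0.155) in saccharin drinkers, positive on 6 of 6 chips, and 0.48 (SE 0.155) in morphine drinkers, positive on 5 of 6.

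Probe ILMN_1247370, annotated to the same RefSeq transcript, gave no such difference. In saccharin drinkers it ran from 6.94 to 8.01 (median 7.48) after saline and from 6.86 to 8.17 (median 7.58) after morphine. In morphine drinkers it ran from 7.18 to 7.79 (median 7.67) after saline and from 7.01 to 7.89 (median 7.52) after morphine. The arrays of the 2 injections covered the same range, and the differences were 0.12 and -0.10 (SE 0.164 each). Averaged over drinks, the 95% interval of the difference was 1.04 to 1.65 for ILMN_2649671, 0.18 to 0.64 for ILMN_2760494 and -0.24 to 0.25 for ILMN_1247370. These intervals are not adjusted for the number of probes, and ILMN_2649671 was chosen by this difference. ILMN_2760494 was not called in any injection comparison. Its mean after saline in morphine drinkers, 7.02, lay under the filter value of 7.05.

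With chip means removed, ILMN_2649671 and ILMN_2760494 correlated at 0.673 over the 24 arrays. The coefficient was 0.236 once group means were removed too, so most of it lay between groups. ILMN_1247370 correlated with ILMN_2649671 at 0.0417 and with ILMN_2760494 at -0.371 with chip means removed. The probes share arrays and normalization, and their sequences and the exons they read were not used here.

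The Hif3a probes were not called between the drinks. For ILMN_2649671, morphine minus saccharin drinkers was -0.09 (SE 0.204) under saline and -0.32 (SE 0.204) under the morphine injection, or -0.21 averaged (95% interval -0.51 to 0.10). The response to the injection differed between the drinks by -0.24 (SE 0.289, 95% interval -0.84 to 0.37), though both responses had been used in choosing the gene. Without the 2 chip 2 arrays, the difference in morphine drinkers was 0.51 for ILMN_2760494 and 0.01 for ILMN_1247370, and the response of ILMN_2649671 differed between the drinks by -0.18 (SE 0.284). Morphine minus saccharin drinkers was then -0.24 (SE 0.205) for ILMN_2649671 under saline and -0.41 (SE 0.205) under the morphine injection. Averaged over injections it was -0.33 (SE 0.148), with an unadjusted p of 0.0434 and an adjusted p of 0.9998 in limma. None of the 3 Hif3a probes was called in the drink comparisons or in the interaction. In these 4 comparisons 0% of all probes were called in limma, while an unadjusted p under 0.05 was reached by 4.84% of probes under saline, 5.59% under the morphine injection, 5.17% averaged over injections and 5.55% in the interaction. With all arrays, the Hif3a probes contributed 0 to these counts.

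No other member gene was called. Of the 17 tested probes of the other 8 genes, limma called 0 in each of the 7 comparisons. At an unadjusted p under 0.05, 1 of the 17 passed in saccharin drinkers, 1 in morphine drinkers, 0 averaged over drinks, 0 in each drink comparison and 1 in the interaction. The share over all probes was 7.42% in saccharin drinkers, 6.21% in morphine drinkers and 7.58% averaged over drinks, so the members stood close to or under the background. Without the 2 chip 2 arrays, limma again called 0 of the 17 probes in each of the 6 comparisons that use morphine drinkers. An unadjusted p under 0.05 was then reached by 0 in morphine drinkers and averaged over drinks, 1 between drinks under saline, 2 under the morphine injection, 0 averaged over injections and 1 in the interaction. Between drinks these were Arnt ILMN_2728802 under saline (-0.28), and Egln1 ILMN_2617087 (-0.27) and Vegfa ILMN_2484527 (0.29) under the morphine injection, and in the interaction the same Vegfa probe. With all arrays, the share over all probes was 4.84% under saline, 5.59% under the morphine injection and 5.55% in the interaction. That share is not given here without the 2 arrays. Without them, the 17 probes' differences in morphine drinkers ran from -0.68 to 0.25, and 8 of the 17 changed sign, none of them called with or without the arrays. With all arrays, the median difference of the 17 probes was 0.02 in saccharin and -0.03 in morphine drinkers, beside -0.01 and 0.01 over all probes.

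**Figure D3:**
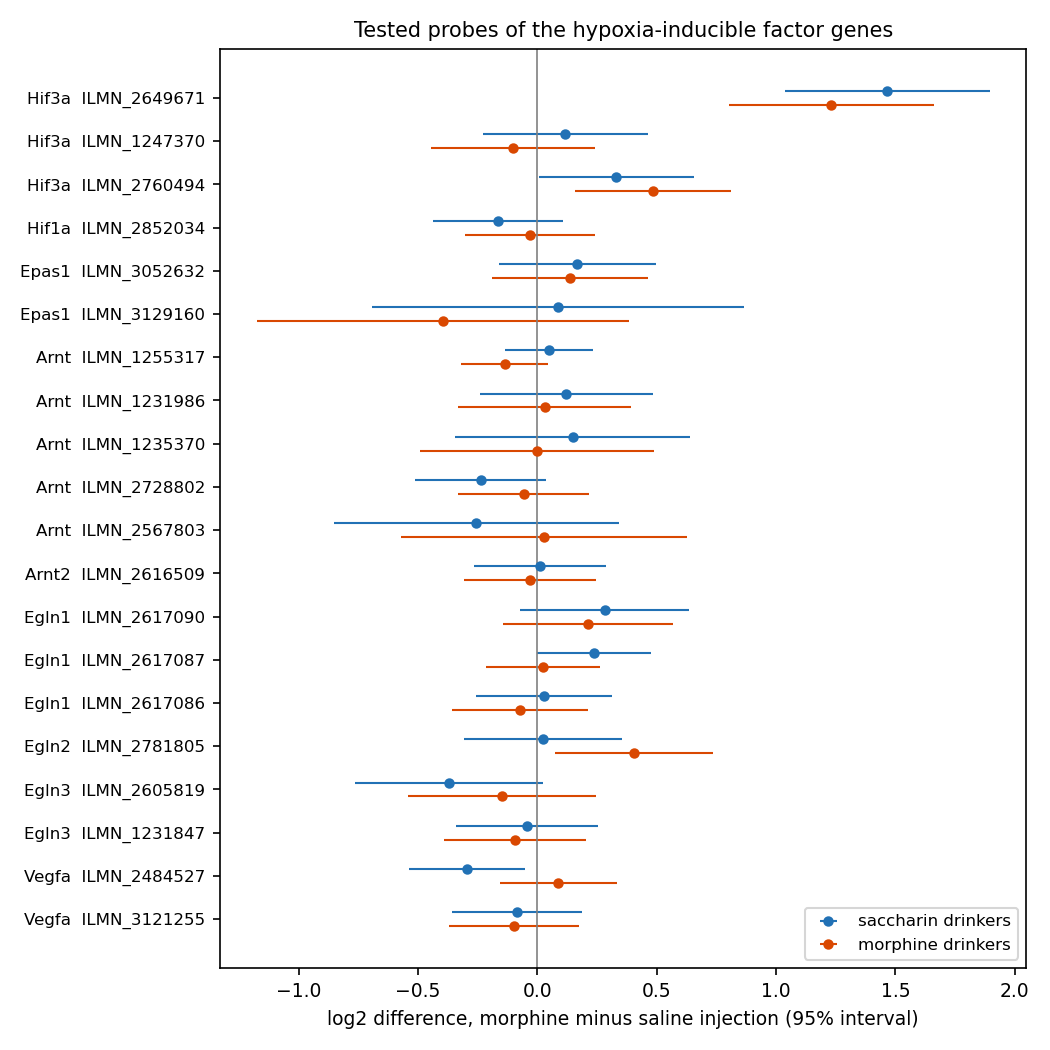
Log2 difference (morphine minus saline injection) with its 95% interval for the 20 tested probes, in saccharin drinkers (blue) and morphine drinkers (orange), n = 6 arrays per group. ILMN_2649671 lies at 1.47 and 1.23, while the 17 probes of the other genes lie between -0.40 and 0.40.

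Among the alpha subunits, Hif1a, which drives the acute response to low oxygen, had 1 tested probe, ILMN_2852034. It ran from 8.84 to 9.13 (median 9.06) after saline and from 8.70 to 9.38 (median 8.75) after morphine in saccharin drinkers. In morphine drinkers it ran from 8.34 to 9.28 (median 8.93) and from 8.56 to 9.08 (median 8.95). The groups overlapped, and the differences of -0.16 (95% interval -0.44 to 0.11) and -0.03 (-0.30 to 0.24) were within the spread between arrays. For Hif1a the interval in saccharin drinkers thus reached no rise above 0.11 log2 units.

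Epas1, known as HIF-2 alpha and prominent in blood vessel cells, had 2 tested probes. ILMN_3052632 differed by 0.17 (SE 0.156) in saccharin and 0.14 (SE 0.156) in morphine drinkers. ILMN_3129160 differed by 0.08 (SE 0.371) and -0.40 (SE 0.371), the widest error of any tested member probe, and by -0.68 (SE 0.387) in morphine drinkers without the 2 chip 2 arrays. Its arrays ran from 6.91 to 9.07 in morphine drinkers after saline, and its values correlated with those of the other Epas1 probe at -0.227 over 24 arrays with chip means removed.

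The beta subunit gene Arnt, the shared partner of all 3 alpha subunits, had 5 tested probes. Their differences ran from -0.26 to 0.15 in saccharin and from -0.14 to 0.03 in morphine drinkers, with signs both ways. The most precise was ILMN_1255317, at 0.05 (SE 0.0871) and -0.14 (SE 0.0871). Arnt2, the form of the beta subunit enriched in neurons, had 1 probe, ILMN_2616509. Its group means were 9.01 ± 0.284 and 9.02 ± 0.259 (SD, n = 6 each) after saline and morphine in saccharin drinkers, and 9.06 ± 0.217 and 9.03 ± 0.201 in morphine drinkers. For Arnt2 the 95% intervals of the difference stayed within -0.31 and 0.29.

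Of the hydroxylases, Egln1, the main oxygen sensor of the system, had 3 tested probes. They differed by 0.28, 0.24 and 0.03 in saccharin drinkers and by 0.21, 0.02 and -0.07 in morphine drinkers. The largest, on ILMN_2617090, had an SE of 0.169 and was positive on 5 of 6 chips in saccharin drinkers and 4 of 6 in morphine drinkers. No Egln1 probe was called, and the adjusted p of ILMN_2617090 in limma was 0.754 and 0.934.

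Egln2, which hydroxylates the same subunits, gave the 1 probe outside Hif3a past an unadjusted p under 0.05 in morphine drinkers. ILMN_2781805 ran from 9.09 to 9.91 (median 9.62) after saline and from 9.55 to 10.46 (median 9.85) after morphine. The groups overlapped, and the difference was 0.40 (SE 0.157), positive on 5 of 6 chips, with an adjusted p of 0.704 in limma. Without the 2 chip 2 arrays it was 0.25 (SE 0.150), with an unadjusted p of 0.119 in limma. In saccharin drinkers Egln2 differed by 0.02 (SE 0.157).

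Egln3, itself a known target of the factors, had 2 tested probes. ILMN_2605819 differed by -0.37 (SE 0.188) in saccharin drinkers, where it ran from 7.25 to 8.30 after saline and from 6.97 to 7.71 after morphine, and by -0.15 (SE 0.188) in morphine drinkers. ILMN_1231847 differed by -0.04 and -0.10 (SE 0.141 each). The Egln3 groups overlapped for both probes, and the adjusted p in limma was 0.696 or higher.

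Vegfa, the target gene among the members, had 2 tested probes. ILMN_2484527 ran from 11.47 to 12.03 (median 11.91) after saline and from 11.37 to 11.74 (median 11.56) after morphine in saccharin drinkers. It was lower after morphine on 6 of 6 chips there, by -0.30 (SE 0.116), with an unadjusted p of 0.0207 and an adjusted p of 0.606 in limma. In morphine drinkers it ran from 11.50 to 11.86 (median 11.71) and from 11.49 to 12.36 (median 11.69), a difference of 0.09 (SE 0.116). The response differed between the drinks by 0.38 (SE 0.165), with an adjusted p of 0.879 in limma, so this difference was not called either. It was 0.40 (SE 0.175) without the 2 chip 2 arrays. The other Vegfa probe, ILMN_3121255, gave -0.09 and -0.10 (SE 0.130 each).

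Below the filter lay 5 probes, of Hif1a (2 probes), Arnt, Egln3 and Vegfa, which were not tested. Their differences ran from -0.34 to 0.20 in saccharin drinkers and from -0.26 to 0.80 in morphine drinkers. The 0.80 belonged to Egln3 probe ILMN_2782101, whose arrays ran from 6.01 to 6.91 after saline and from 6.07 to 8.19 after morphine. That dim probe overlapped between injections, and the 2 tested Egln3 probes were not higher in the same group.

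Genes that act on the subunits were counted next. The list of regulators holds, among others, Vhl, which recruits the ubiquitin ligase, Hif1an, which blocks co-activator binding, and the co-activator genes Ep300 and Crebbp. Of its 18 tested genes (34 probes), 0 were called in the 3 injection comparisons, and its median difference was -0.05 in saccharin and 0.01 in morphine drinkers. The largest differences were -0.59 for the chaperone gene Hsp90aa1 (adjusted p in limma 0.570) and 0.37 for Crebbp (0.808), each on 1 probe in saccharin drinkers. There the other tested probe of Hsp90aa1 gave -0.20, and those of Crebbp gave 0.06 and 0.01.

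Relatives that share the PAS dimerization domain with Hif3a, many of them clock genes, had 12 tested genes (20 probes). Per2, a repressor in the circadian clock, rose averaged over drinks on 2 of its 3 tested probes. The differences were 0.39 and 0.43, with an adjusted p of 0.0317 and 0.0455 in limma. Over all probes, 0.476% were called in that comparison. Neither of the 2 probes was called in saccharin drinkers (0.703 and 0.751) or in morphine drinkers (0.143 and 0.144). The Per2 calls averaged over drinks were lost in 22 of 42 and 29 of 43 other settings, most of them with 1 array or chip left out. The activity-induced gene Npas4 reached 0.84 on 1 probe in morphine drinkers, with an adjusted p of 0.759 in limma. Its other, brighter tested probe went the other way there, at -0.18. Per3 reached 0.54 on 1 probe in saccharin drinkers, with an adjusted p of 0.557, and 0.11 on its other tested probe.

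Known targets of the factors were split into glycolysis genes (20 genes, 30 probes) and others (29 genes, 43 probes), 48 genes together. Averaged over drinks, 3 of the 48 rose and 1 fell, each on 1 probe, of 72 target probes tested. Over all probes, 0.476% were called in that comparison. Slc2a1, the glucose transporter of the blood-brain barrier, rose by 0.64 (adjusted p in limma 0.0025), Angptl4, a lipoprotein lipase inhibitor, by 0.84 (0.0016), and Ddit4, an inhibitor of mTOR signalling, by 0.71 (0.0111). The chemokine gene Cxcl12 fell by 0.58 on 1 of 3 probes (0.0143). Averaged over drinks, the Cxcl12 call was lost in 6 of 43 other settings, with adjusted p up to 0.133 in limma, and the Ddit4 call in 5 of 43, with up to 0.151. Leaving out chip 1, 3, 4 or 6 ended the Cxcl12 call, and leaving out chip 1, 2 or 6 the Ddit4 call. In the glycolysis list, Pfkfb3 reached 0.67 and Pgk1 -0.35 in saccharin drinkers without a call (0.376 and 0.789). The other tested Pgk1 probe gave -0.11 there. The median over the probes of the glycolysis list was -0.06 in saccharin and 0.01 in morphine drinkers, and over the other targets 0.05 and 0.02.

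In saccharin drinkers the same 3 target genes passed, Angptl4 by 1.08 (adjusted p in limma 0.0086), Ddit4 by 0.92 (0.0400) and Slc2a1 by 0.70 (0.0400). Over all probes, 0.222% were called there. Angptl4 ran there from 8.17 to 8.46 after saline and from 8.95 to 10.05 after morphine, with no overlap. Slc2a1 (11.90 to 12.44, then 12.59 to 13.11) and Ddit4 (10.21 to 11.05, then 11.33 to 12.15) did not overlap either. Over all probes tested, 0.449% did not overlap between injections in saccharin drinkers. The groups of all 3 genes overlapped in morphine drinkers, as with Angptl4 at 7.56 to 8.51 after saline and 8.20 to 8.93 after morphine. In morphine drinkers 0 target genes were called by limma, at 0.60, 0.50 and 0.58 for these genes, and without the 2 chip 2 arrays Slc2a1 was called there (0.65, adjusted p 0.0468). The calls of Ddit4 and Slc2a1 in saccharin drinkers were lost in 30 and 27 of 44 other settings, and that of Angptl4 in 4. Of 10 endothelial marker genes tested, 0 were called in any injection comparison. Their mean ran from 9.45 to 9.71 and from 9.34 to 9.79 after saline and morphine in saccharin drinkers, and from 9.51 to 9.83 and from 9.09 to 9.72 in morphine drinkers.

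Vegfa's own family and receptors, with the angiopoietin pathway, had 13 tested genes (19 probes) and 0 calls in limma. The receptor gene Tek reached -0.68 in morphine drinkers (adjusted p 0.282) and Flt4 0.53 on 1 probe in saccharin drinkers (0.723). The other tested Flt4 probe gave -0.01 in saccharin drinkers.

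Angptl4 and Ddit4 also belong to a list of genes known to be induced by glucocorticoids, the adrenal stress hormones. Of its 20 genes (28 probes), 13 rose in saccharin drinkers, 5 in morphine drinkers and 14 averaged over drinks, and 0 fell. Over all probes, 0.222%, 0.0533% and 0.476% were called in these comparisons. Leaving out 1 array or chip lowered the number of the list's probes that rose in saccharin drinkers from 17 to as few as 6, reached without chip 1. The median difference of its probes was 0.95 in saccharin and 0.52 in morphine drinkers, beside -0.01 and 0.01 over all probes. Plin4, which coats lipid droplets, differed by 3.08 and 3.21, Fkbp5, a chaperone of the glucocorticoid receptor, by 0.97 and 0.75, and Sult1a1 by 1.07 and 0.92. Tsc22d3, a glucocorticoid-induced leucine zipper gene, differed by 1.09 and 1.05 on ILMN_3150811 and by 1.49 and 1.47 on ILMN_2701664. Its probe ILMN_2648224 gave 0.19 and 0.48 and was not called. This list was drawn up with the response of these arrays known, so its direction is not independent evidence.

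**Figure D4:**
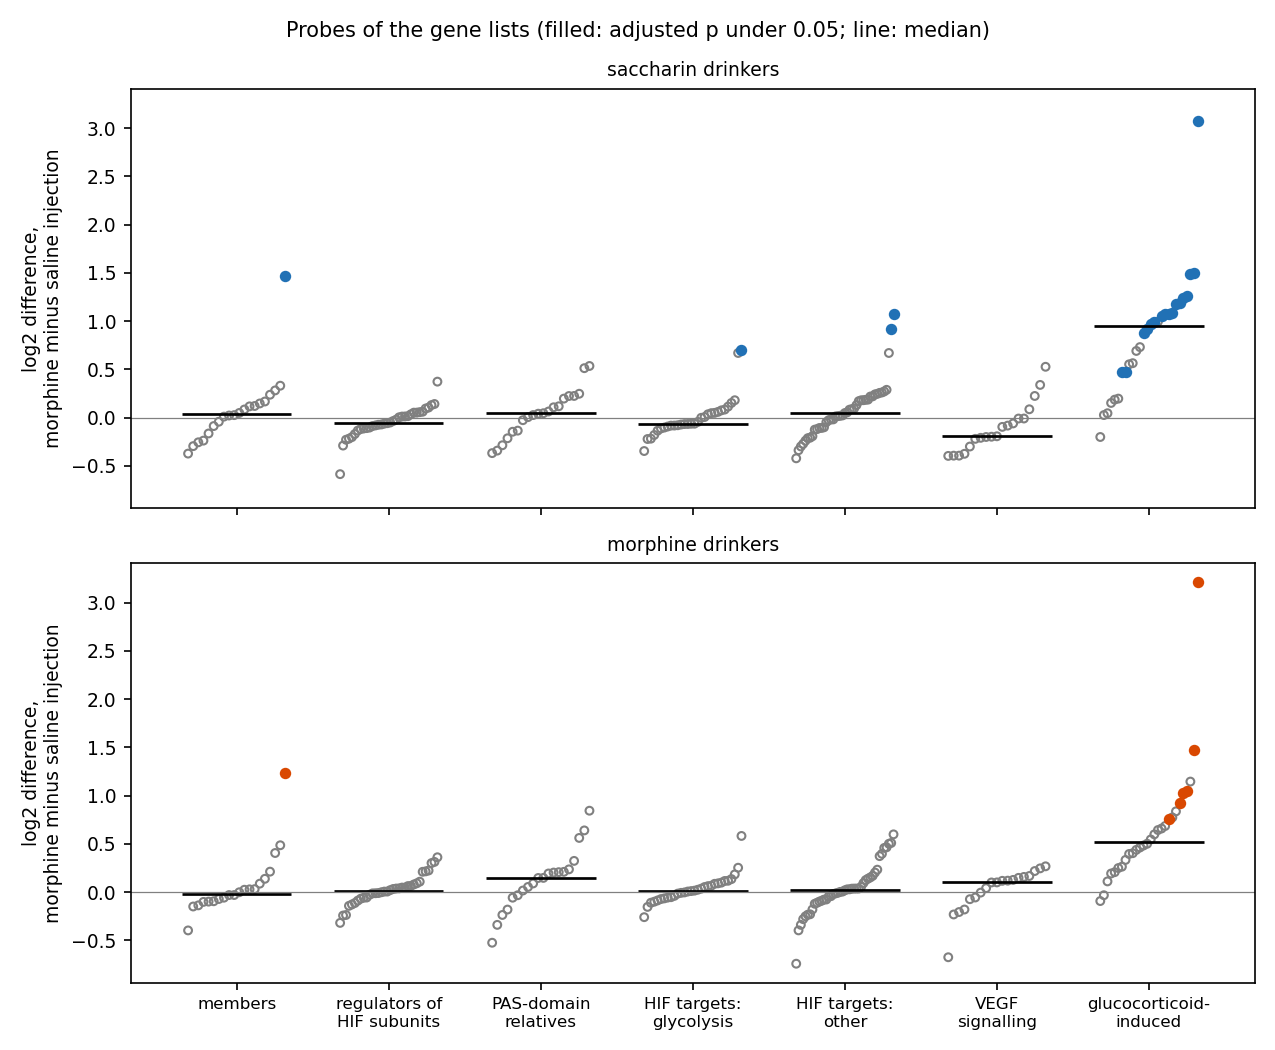
Log2 difference of every tested probe in the member list and 6 gene lists, in saccharin drinkers (top) and morphine drinkers (bottom); filled points have an adjusted p under 0.05 in limma and black lines are medians. The member, regulator and target lists centre near 0 with Hif3a ILMN_2649671 apart at 1.47 and 1.23, while the glucocorticoid-induced list is centred at 0.95 and 0.52. The PAS list is centred at 0.04 and 0.15 and the VEGF list at -0.19 and 0.10.

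The probes most like Hif3a ILMN_2649671 were sought by Pearson correlation over the 24 arrays among all 22499 probes. With chip means removed the closest were Tsc22d3 on ILMN_2701664 (0.945), the lipase gene Pnpla2 (0.941), Plin4 (0.931), Sesn1 (0.926) and the cell cycle inhibitor gene Cdkn1a (0.925). These coefficients include the gap between injections, by which Hif3a was chosen. With group means removed as well, the closest were Fam117b (0.893), Stk32a (0.888), Usp36 (0.883), Trap1 (0.876) and Intu (0.875). None of the first 5 was among the second 5, and the second 5 differed between injections by -0.08 to 0.31. Among the members outside Hif3a, the coefficient with chip means removed ran from -0.493 for Egln3 ILMN_2605819 to 0.421 for Egln1 ILMN_2617087.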

How the data were processed

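RNA of 24 striatum samples, 1 array each, was measured on Illumina bead arrays with biotinylated cRNA, per the labels' protocols. The authors deposited probe intensity on a linear scale without normalization between arrays. They also deposited log2 values, which differed by at most 0.0351 from the log2 of the intensities after quantile normalization alone and served as an alternative. The sources used here do not say whether the scanner subtracted background, and detection p-values were not used here.

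The intensities were corrected by normexp (offset 50), put on the log2 scale and quantile-normalized in limma 3.58.1 under R 4.3.3. Of 45281 probes, 34885 had 1 gene symbol in the platform annotation, 18 several and 10378 none. The filter kept the 22499 of these whose mean exceeded the array-wide 40th percentile (7.05). A linear model with terms for group and chip was fitted to each probe on the 24 arrays (lmFit, eBayes). The 7 comparisons were the injection effect in each kind of drinker and averaged, the drink effect under each injection and averaged, and their interaction. Two-sided p-values were adjusted by Benjamini-Hochberg over all these probes, with a threshold of 0.05. The number of arrays limits the precision. Sample numbers differ between all groups, and where the labels do not say that each is a separate mouse, p-values measure only the spread between these samples.

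The members and gene lists were chosen with earlier results of these data known. Of 222 list entries, 210 were on the array. Named genes are all member probes, up to 4 called genes of each list (smallest p first), up to 2 of largest difference where fewer than 2 were called, and the 5 most like Hif3a by each measure. Median changes of probes stand in for list tests. The fit was tested on simulated data. Other settings changed the background step, the scaling, the filter, the number of probes for a gene, the chip terms, array weights, the prior or the groups fitted, used the authors' values, or left out an array or chip. Promoter windows are from RefSeq. Figures were drawn with matplotlib 3.10.9.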

Additional observations from a re-analysis of the deposited data

Results flagged for a closer look

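Of 100 sets of 6 arrays examined, 1 for each member probe and group, 7 held an array whose gap to its nearest neighbour exceeded the 95% critical share of the group's range in Dixon's test, while chance gives about 1 in 20. Hif3a probe ILMN_2760494 stood at 7.18 on saccharin drinker replicate 6 after morphine, with the others at 7.47 to 7.54. Hif1a probe ILMN_2852034 stood at 9.38 on saccharin drinker replicate 7 after morphine, with the others at 8.70 to 8.89. Arnt probe ILMN_1255317 stood at 10.39 on morphine drinker replicate 30 after saline, with the others at 10.71 to 10.82. Arnt2 probe ILMN_2616509 stood at 8.51 on saccharin drinker replicate 11 after morphine, with the others at 9.03 to 9.20.

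The other 3 lay on 1 array, saccharin drinker replicate 10 after saline. Arnt probe ILMN_1235370 stood there at 7.12 (others 7.64 to 7.94), Egln1 probe ILMN_2617090 at 8.31 (others 8.98 to 9.34) and Egln1 probe ILMN_2617086 at 7.62 (others 8.20 to 8.53). Replicate 10 also had the lowest saline value of Hif3a probe ILMN_2649671 among saccharin drinkers, 7.49.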

How the results depend on the processing

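The difference of Hif3a probe ILMN_2649671 was positive in 44 of 44 other settings in both kinds of drinkers. The probe was chosen by this rise and the settings reuse the same arrays, so its sign there is a description. The difference ran from 1.20 to 1.58 in saccharin and from 0.98 to 1.35 in morphine drinkers, the authors' deposited log2 values giving 1.21 and 0.99. Limma called 1 Hif3a probe in each injection comparison. With only the groups compared in the fit, which holds fewer samples, it called 0 in both kinds of drinkers, and with array weights 2 averaged over drinks. With 1 array or chip left out, the count was 1 in saccharin drinkers and 0 to 1 in morphine drinkers. It was 0 there without chip 1, 3, 4, 5 or 6, without replicate 30, 33, 37 or 38 (saline) and without replicate 29, 31, 35 or 39 (morphine). For the other members, 0 probes were called in all settings of all 7 comparisons.

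The gene lists and named target genes were put through the same settings after their values had been seen. Probes of the HIF target lists that rose numbered 3 in saccharin drinkers, 1 with scaling to a common median, with no filter or with chip position added, and 0 with only the groups compared. In morphine drinkers they numbered 0, 2 with array weights and 1 without the 2 chip 2 arrays. Leaving out 1 array or chip gave 0 to 3 in saccharin drinkers, where leaving out 1 array changed the count for 21 of 24 arrays, by over 1.5 times for 16, and 0 to 1 in morphine drinkers (1 without replicate 31). Glucocorticoid-induced probes that rose numbered 17 in saccharin drinkers, 10 with scaling to a common median and 7 with only the groups compared, and 6 in morphine drinkers, 11 with array weights and 2 with only the groups compared. Leaving out 1 array or chip gave 6 to 17 in saccharin drinkers. The cause of these shifts was not tested. Hif3a probe ILMN_1247370, with no clear difference, was positive in 42 of 42 settings in saccharin but in 4 of 42 in morphine drinkers. The groups share no replicate numbers, so arrays were matched only by chip, the block of the fit.

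Probes near the filter are limited by dim signal, and 1 GenBank-annotated probe carries most of the Hif3a difference.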
